A study of Homo sapiens with 8 samples.

Results

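The 43 genes described here encode matrix metalloproteinases (MMP), proteins with a disintegrin and metalloproteinase domain (ADAM) and ADAMTS-like proteins (ADAMTSL). They were selected by symbol from the annotation of the array, which matched 50 genes; 6 pseudogenes and 1 antisense RNA were left out. The remaining 43, of 14884 genes measured, comprised 19 MMP, 19 ADAM and 5 ADAMTSL genes. ADAMTS proteases proper, the gelatinases MMP2 and MMP9, the stromelysin MMP3 and the matrilysin MMP7 are not analysed here.

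Expression was measured on 8 Affymetrix arrays, each with RNA from a different clonal isolate of PC-3, a line established from human prostate cancer. RWDD4 clones 17, 24, 5 and 6 carried RWDD4 in a p-Lenti vector, and control clones 2, 3, 4 and 5 carried the vector without an insert. Both groups had been selected with the same antibiotic (blastocydin in the labels), so the vector and the selection were shared, and the insert was not. Each isolate is a single clone and was read once, and the labels do not say how many transductions the clones came from, so p-values measure the spread between these isolates.

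Metalloproteinases of these families hold a zinc ion in the active site and are made as inactive precursors whose prodomain is removed, often by furin-like convertases. Most MMPs are secreted and cut collagens, laminins and proteoglycans, while the membrane-type MMPs act at the cell surface. ADAMs are membrane proteins: the catalytic ones shed the outer parts of growth factors, receptors and adhesion molecules, and others lack an intact zinc site and act through protein binding. ADAMTS-like proteins share the extracellular modules of ADAMTS proteases without a protease domain and associate with fibrillin microfibrils. In prostate and other carcinomas these enzymes are studied for their part in invasion and growth factor release.

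All values are log2 values of a probe set, and the difference is RWDD4 clones minus control clones. A gene rose or fell when its adjusted p (limma, Benjamini-Hochberg over all 14884 genes) was under 0.05. Clone values are listed in the order 17, 24, 5 and 6 for RWDD4 clones and 2, 3, 4 and 5 for control clones. RWDD4 itself lay between 9.87 and 10.46 in RWDD4 clones and between 6.64 and 8.0 in control clones, without overlap. Arrays correlated at r = 0.991 to 0.993 within RWDD4 clones, 0.980 to 0.992 within control clones and 0.913 to 0.974 between the groups, across genes, which are not independent replicates. The epithelial markers KRT7, KRT8, KRT18, KRT19 and EPCAM had a mean of 8.0 to 8.24 in RWDD4 clones and 8.44 to 8.58 in control clones. The 4 keratins among these 5 markers fell. Both fibroblast markers measured (DCN and LUM) lay below the overall probe set median, with a mean of 2.84 to 2.95 in RWDD4 clones and 2.87 to 2.99 in control clones. Both blood cell markers measured, CD14 and CD68, fell, with a mean of 7.06 to 7.35 in RWDD4 clones and 7.32 to 7.70 in control clones. That mean joins unlike values. CD14 lay below the same median, at 4.09 in RWDD4 clones and 4.51 in control clones. CD68 lay at 10.21 and 10.60, with groups that overlapped (adjusted p = 0.049). Of 3 endothelial markers VWF fell, with both its group means below that median. PECAM1 and KDR did not pass and lay above it. PECAM1 had means of 5.44 in RWDD4 clones and 5.57 in control clones, and KDR of 8.59 and 8.25. The list mean, which joins these unlike values, was 5.82 to 6.65 in RWDD4 clones and 5.97 to 6.37 in control clones. Of the luminal markers KLK2 and KLK3 neither passed the test, with a mean of 5.66 to 5.84 in RWDD4 clones and 5.64 to 5.98 in control clones. Each array held RNA from a clonal isolate of the PC-3 line, and a part of other cells in the results below was not tested. In bulk RNA, fewer cells of a clone that express a gene and less RNA per cell cannot be told apart.

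The protease families split into 2 directions. Of the 43 genes 8 rose, 11 fell and 24 did not pass the test. Those 8 that rose were the surface sheddases ADAM9, ADAM10, ADAM12 and ADAM17, the non-catalytic ADAM22 and ADAM23, the membrane-type MMP16 and ADAMTSL3. Those 11 that fell were ADAM8, ADAM15, ADAM33, MMP11, MMP15, MMP17, MMP21, MMP24, MMP28, ADAMTSL4 and ADAMTSL5. Rises ran from 1.46-fold to 2.62-fold, and falls from 1.19-fold to 1.58-fold.

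The share of the family that changed was near that of all genes. Among all 14884 genes 46.7% changed, 25.1% up and 21.6% down, and 19 of the 43 protease genes did so. In 17 of the 43 members both group means lay below the overall probe set median, and 1 of these changed. Among all genes 4040 lay so low, and 501 of them changed. Of the 26 other members 18 changed, against 6454 of the 10844 other genes. The family's median difference was -0.18, against -0.08 over all genes. In 22 members the clones of the groups did not overlap, 7 with RWDD4 clones higher and 15 with RWDD4 clones lower, against 44.8% of all genes (23.7% higher and 21.1% lower). Both members that changed at least 2-fold, ADAM9 and ADAM10, rose, and such changes in either direction made up 10.2% of all genes.

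Cyclic loess scaling gave 8 rises and 7 falls in the family, against 8 and 11 as reported. Over all 14884 genes it gave 3980 rises and 2200 falls, against 3741 and 3214 as reported. When clone-to-clone variation was fitted as a covariate, limma called 0 of the 43 genes, and 6 had an unadjusted p under 0.05. That fit called 0 of all 14884 genes higher and 1 lower, with 1910 at an unadjusted p under 0.05. The covariate was each clone's place on the within-group axis, the direction across genes along which clones of 1 group differed most. RWDD4 clones lay at 19.7 to 35.9 on it and control clones at -58.4 to -12.2, with control clone 2 at the low end, so the covariate and the group run together.

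**Figure D1:**
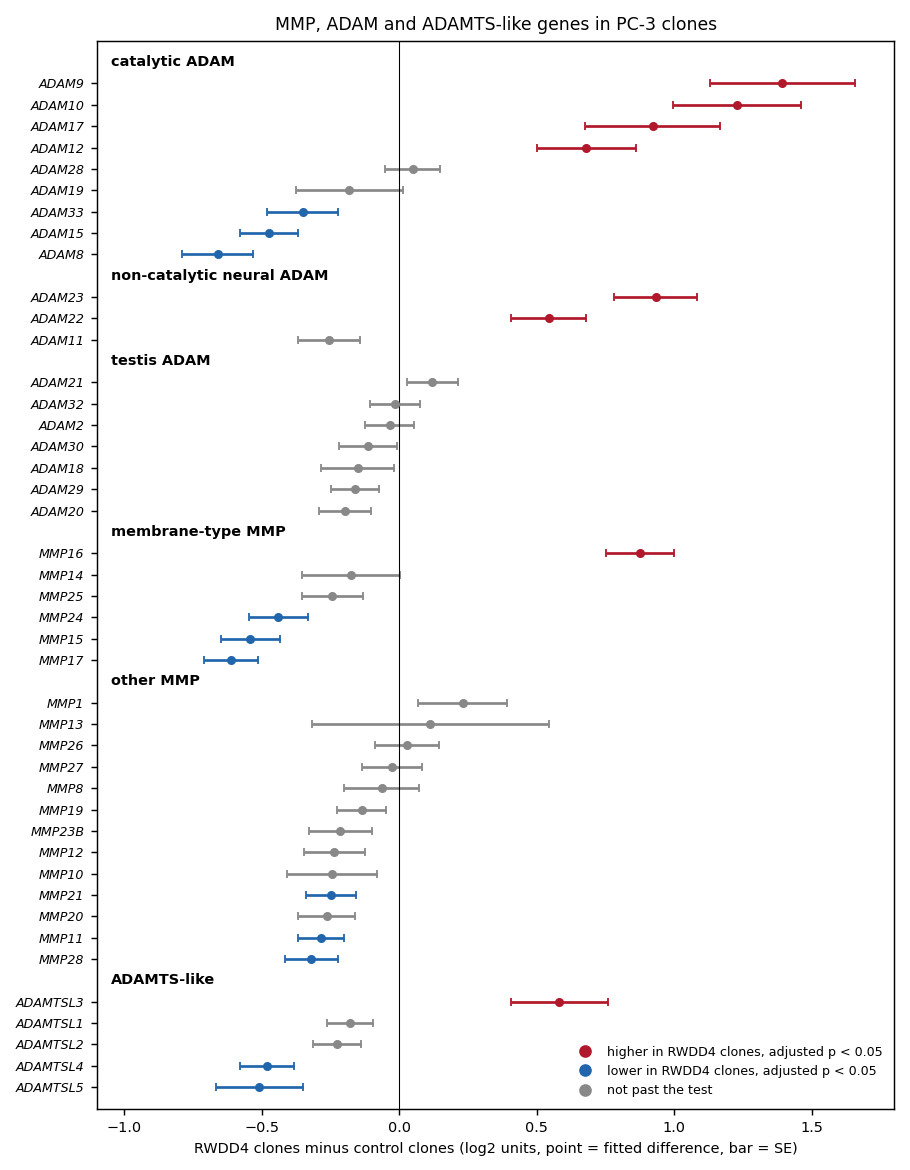
Fitted difference of each of the 43 genes, RWDD4 clones minus control clones in log2 units on the horizontal axis, grouped by class down the page; points are fitted differences, bars are standard errors, red marks genes that rose, blue genes that fell and grey genes that did not pass. The catalytic ADAMs spread from -0.66 for ADAM8 to 1.39 for ADAM9, whereas the 7 testis ADAMs lie between -0.20 and 0.12.

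Among the 9 catalytic ADAMs outside the testis group 4 rose, 3 fell and 2 did not pass. Of all genes 25.1% rose and 21.6% fell. ADAM9, a broadly expressed sheddase, read 9.40, 9.22, 9.65 and 9.70 in RWDD4 clones, against 7.16, 8.39, 8.32 and 8.54 in control clones. Every RWDD4 clone exceeded every control clone, and control clone 2 lay far under the other controls. ADAM9 rose by 1.39 (SE 0.26), or 2.62-fold (adjusted p = 0.0017), and by 1.08 (SE 0.13) without control clone 2. ADAM10, the main sheddase of Notch receptors and of several cadherins, read 7.69, 7.80, 8.02 and 8.56 in RWDD4 clones, against 6.15, 7.17, 6.90 and 6.93 in control clones. The groups were again apart, and clone 6 was the highest of the RWDD4 clones. The rise of ADAM10 was 1.23 (SE 0.23), or 2.34-fold (adjusted p = 0.0018).

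ADAM17, the converting enzyme of tumour necrosis factor and the sheddase of most ligands of the epidermal growth factor receptor, was nearly constant among RWDD4 clones, at 8.06, 8.21, 8.17 and 8.18, against 6.46, 7.94, 7.14 and 7.40 in control clones. Control clone 3 came close to the lowest RWDD4 clone, as the plot of values by clone shows, and control clone 2 lay farthest below. ADAM17 rose by 0.92 (SE 0.24; adjusted p = 0.011), and by 0.66 without control clone 2. ADAM12, which cleaves insulin-like growth factor binding proteins, read 7.01, 7.20, 6.66 and 7.48 in RWDD4 clones, against 6.38, 6.68, 6.04 and 6.53 in control clones. RWDD4 clone 5 and control clone 3 overlapped at these values, and ADAM12 rose by 0.68 (SE 0.18; adjusted p = 0.011).

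Control clone 2 had the lowest value of all 8 clones for 5 of the 8 genes that rose, ADAM9, ADAM10, ADAM17, ADAM23 and MMP16. All 8 rises passed without that clone. Fitted beside the within-group axis, the signs of the 3 main sheddases turned: ADAM9 lay at -0.23 (SE 0.18), ADAM10 at -0.03 (SE 0.29) and ADAM17 at -0.35 (SE 0.33), none past the test. Because that axis and the group run together, the fit cannot separate them, and nothing is concluded from these signs.

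The other 3 catalytic ADAMs that changed moved the opposite way. ADAM8, best known from leukocytes and inflamed tissue, read 6.42, 6.56, 6.27 and 6.58 in RWDD4 clones, against 7.29, 7.35, 6.93 and 6.91 in control clones. No RWDD4 clone reached a control clone, and ADAM8 fell by 0.66 (SE 0.13), or 1.58-fold (adjusted p = 0.0020). ADAM15, which carries an integrin-binding RGD motif in humans, read 9.32, 9.31, 9.03 and 9.20 in RWDD4 clones, against 9.90, 9.60, 9.61 and 9.65 in control clones. It fell by 0.47 (SE 0.10; adjusted p = 0.0042), again without overlap.

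ADAM33, studied as an asthma susceptibility gene, read 6.18, 6.04, 6.06 and 5.90 in RWDD4 clones, against 6.31, 6.16, 6.76 and 6.35 in control clones, with a slight overlap. It fell by 0.35 (SE 0.13; adjusted p = 0.045), and it did not pass without RWDD4 clone 24, 5 or 6 or control clone 4 or 5, where adjusted p lay between 0.066 and 0.12. ADAM33 also missed the threshold at -0.26 (adjusted p = 0.11) without the span trend, over all probe sets (adjusted p = 0.075), after cyclic loess (adjusted p = 0.12) and after median centring (adjusted p = 0.076). ADAM19, a sheddase of neuregulin, lay at -0.18 (SE 0.20), and ADAM28, known from lymphocytes, at 0.05 (SE 0.10). Neither of these passed, and their clones overlapped between the groups.

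**Figure D2:**
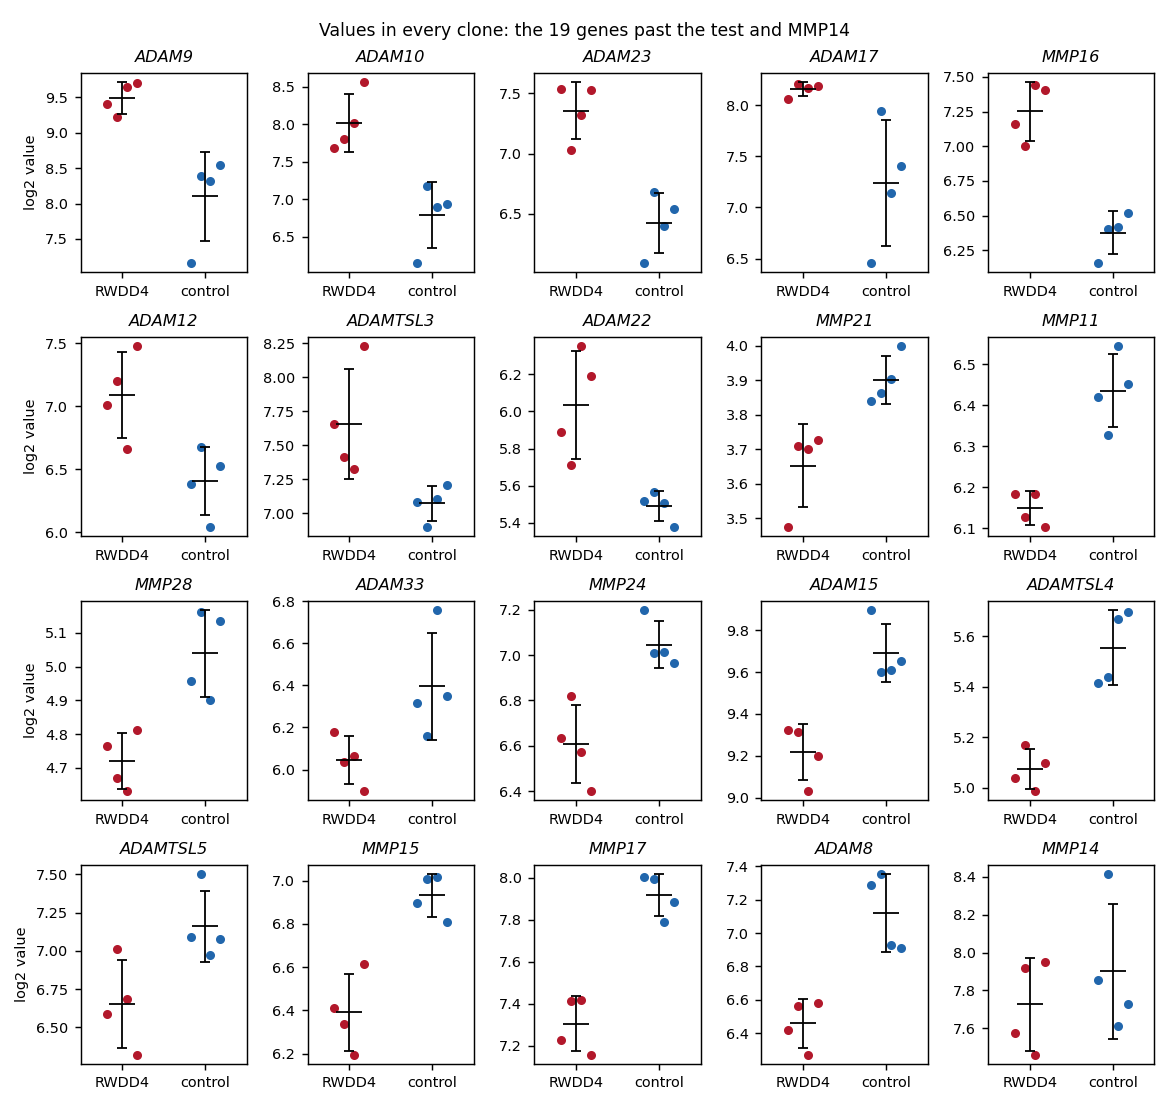
Log2 value in every clone for the 19 genes that passed the test and for MMP14, with RWDD4 clones in red on the left and control clones in blue on the right of each panel; horizontal marks are means and bars are SD over 4 clones, and each panel has its own axis. ADAM17 was nearly constant among RWDD4 clones, at 8.06 to 8.21, and spread over 6.46 to 7.94 among control clones.

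ADAM22 and ADAM23 encode receptors of the secreted LGI proteins and organise synapses; ADAM11 is their close relative, and none of the 3 has an intact zinc site. ADAM23 read 7.54, 7.03, 7.32 and 7.53 in RWDD4 clones, against 6.09, 6.68, 6.39 and 6.54 in control clones. The groups did not overlap, and RWDD4 clone 24 and control clone 3 were nearest. ADAM23 rose by 0.93 (SE 0.15), or 1.91-fold (adjusted p = 6.8e-04). ADAM22 read 5.89, 5.71, 6.35 and 6.19 in RWDD4 clones, against 5.52, 5.56, 5.50 and 5.38 in control clones. It rose by 0.54 (SE 0.14; adjusted p = 0.0079) and lay at 0.29 (adjusted p = 0.083) once each array's trend over genomic span was removed. ADAM11, at -0.26 (SE 0.11; adjusted p = 0.083), did not pass.

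The 7 ADAMs known mainly from sperm and testis (ADAM2, ADAM18, ADAM20, ADAM21, ADAM29, ADAM30 and ADAM32) did not pass the test. Their differences ran from -0.20 to 0.12, and all 7 had group means below the overall probe set median. Their class mean lay at 3.37 to 3.47 in RWDD4 clones and 3.41 to 3.63 in control clones. ADAM9 and ADAM32 are neighbours in the gene order, with no protein-coding gene between them, yet lay at 1.39 and -0.02; ADAM18 and ADAM2, next in the row, lay at -0.15 and -0.04.

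All 6 membrane-type MMPs were measured: 1 rose, 3 fell and 2 did not pass, against 25.1% up and 21.6% down in all genes. MMP16, which can activate the gelatinase precursor proMMP2, read 7.16, 7.0, 7.44 and 7.40 in RWDD4 clones, against 6.16, 6.41, 6.42 and 6.52 in control clones. The groups stood clearly apart, with RWDD4 clone 24 and control clone 5 nearest. The rise of MMP16 was 0.87 (SE 0.12), or 1.83-fold, with the lowest adjusted p of the family, 3.2e-04.

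MMP17, held at the membrane by a lipid anchor, read 7.23, 7.42, 7.42 and 7.16 in RWDD4 clones, against 8.0, 7.99, 7.79 and 7.88 in control clones. It fell by 0.61 (SE 0.10), or 1.53-fold (adjusted p = 6.5e-04), with the groups apart in every clone. MMP15, a transmembrane relative of MMP14, read 6.41, 6.34, 6.20 and 6.62 in RWDD4 clones, against 6.90, 7.01, 7.02 and 6.81 in control clones. It fell by 0.54 (SE 0.11; adjusted p = 0.0022).

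MMP24, found mainly in the nervous system, read 6.63, 6.82, 6.57 and 6.40 in RWDD4 clones, against 7.20, 7.01, 7.01 and 6.97 in control clones. The groups did not overlap, and MMP24 fell by 0.44 (SE 0.11; adjusted p = 0.0069). A second probe set assigned to MMP24 lay at 0.09 (SE 0.16), so the fall rests on 1 of 2 probe sets, and their mean, at -0.17, did not pass (adjusted p = 0.18). MMP25, a leukocyte enzyme, lay at -0.24 (SE 0.11; adjusted p = 0.094), with -0.34 and -0.38 in its other 2 probe sets. MMP14, the main pericellular collagenase, read 7.58, 7.92, 7.46 and 7.95 in RWDD4 clones, against 7.85, 8.42, 7.61 and 7.73 in control clones. Its groups overlapped, and its difference of -0.18 (SE 0.18; adjusted p = 0.44) did not pass.

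Of the 13 other MMPs 3 fell and none rose, in limma's fit, with 4 at an unadjusted p under 0.05. The same fit called 25.1% of all genes higher and 21.6% lower. MMP11, a stromelysin activated by furin inside the cell, read 6.18, 6.13, 6.18 and 6.10 in RWDD4 clones, against 6.42, 6.33, 6.54 and 6.45 in control clones. The groups were apart, and MMP11 fell by 0.29 (SE 0.08; adjusted p = 0.017); it lay at -0.17 (adjusted p = 0.14) with the span trend removed and at -0.21 (adjusted p = 0.068) after cyclic loess. MMP28 (epilysin), an MMP of keratinocytes, read 4.76, 4.67, 4.63 and 4.81 in RWDD4 clones, against 4.96, 5.16, 4.90 and 5.13 in control clones. The groups were apart, and MMP28 fell by 0.32 (SE 0.09; adjusted p = 0.018). It did not pass after cyclic loess or without RWDD4 clone 5, where it lay at -0.20 and -0.29 (adjusted p = 0.13 and 0.056).

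MMP21, which acts in left-right patterning of the embryo, read 3.47, 3.71, 3.70 and 3.73 in RWDD4 clones, against 3.84, 3.86, 3.90 and 4.0 in control clones. All control clones were higher, and MMP21 fell by 0.25 (SE 0.09; adjusted p = 0.045). Both of its group means lay below the overall probe set median. It passed in 1 of the 8 fits that leave out a clone, with adjusted p of 0.059 to 0.12 in the other 7, and in none of the 3 further scalings (adjusted p = 0.096 to 0.21). MMP21 lay at -0.11 (adjusted p = 0.39) with the span trend removed.

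The interstitial collagenase MMP1 read 5.66, 6.05, 5.71 and 5.43 in RWDD4 clones, against 5.51, 5.74, 5.60 and 5.09 in control clones, an overlap, with a difference of 0.23 (SE 0.16; adjusted p = 0.26). The collagenase MMP13 varied most within groups of all 43 genes, at 3.69, 5.05, 5.02 and 4.37 in RWDD4 clones, against 3.41, 4.60, 5.62 and 4.05 in control clones. High and low clones occurred in both groups, with SDs of 0.64 in RWDD4 clones and 0.93 in control clones, and its difference was 0.11 (SE 0.43). The stromelysin MMP10 read 3.06, 3.10, 3.07 and 2.95 in RWDD4 clones, against 3.84, 3.21, 3.12 and 2.98 in control clones, where clone 2 was the highest. Its difference was -0.24 (SE 0.16; adjusted p = 0.24).

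MMP20, MMP27, MMP8, MMP10, MMP1, MMP12 and MMP13 follow each other in the gene order, with 1 other protein-coding gene between MMP1 and MMP12. None of these 7 neighbours passed, and their differences ran from -0.26 for MMP20, an enamel protease, to 0.23 for MMP1. MMP19, MMP23B and MMP26 also did not pass, at -0.14, -0.21 and 0.03. The pseudogene MMP23A, named after its values were seen, is a near-identical copy of MMP23B and fell by 0.63. Probes of these 2 genes could read each other's transcripts, and which was measured is uncertain.

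Of the 5 ADAMTS-like genes 1 rose, 2 fell and 2 did not pass, against 25.1% up and 21.6% down in all genes. ADAMTSL3 read 7.65, 7.42, 7.32 and 8.23 in RWDD4 clones, against 7.08, 6.90, 7.11 and 7.21 in control clones. Clone 6 was the highest by a wide margin, and the other RWDD4 clones lay close above the controls. ADAMTSL3 rose by 0.58 (SE 0.18; adjusted p = 0.021); it lay at 0.40 (adjusted p = 0.087) after quantile normalization, at 0.37 (adjusted p = 0.099) with the span trend removed and at 0.52 (adjusted p = 0.052) without control clone 3.

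ADAMTSL4, which binds fibrillin-1 and is mutated in isolated lens dislocation, read 5.04, 5.17, 4.99 and 5.10 in RWDD4 clones, against 5.41, 5.44, 5.67 and 5.70 in control clones. It fell by 0.48 (SE 0.10; adjusted p = 0.0027), with the groups apart. ADAMTSL5 read 6.58, 7.01, 6.68 and 6.32 in RWDD4 clones, against 7.09, 7.50, 6.97 and 7.07 in control clones. RWDD4 clone 24 overlapped control clone 4, and ADAMTSL5 fell by 0.51 (SE 0.16; adjusted p = 0.022). That fall did not pass without RWDD4 clone 17 or 6 or control clone 3 (adjusted p = 0.053, 0.065 and 0.056), nor with the span trend removed (-0.35; adjusted p = 0.080). ADAMTSL2, mutated in geleophysic dysplasia, and ADAMTSL1 lay at -0.23 (adjusted p = 0.052) and -0.18 (adjusted p = 0.10), each with groups that did not overlap.

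**Figure D3:**
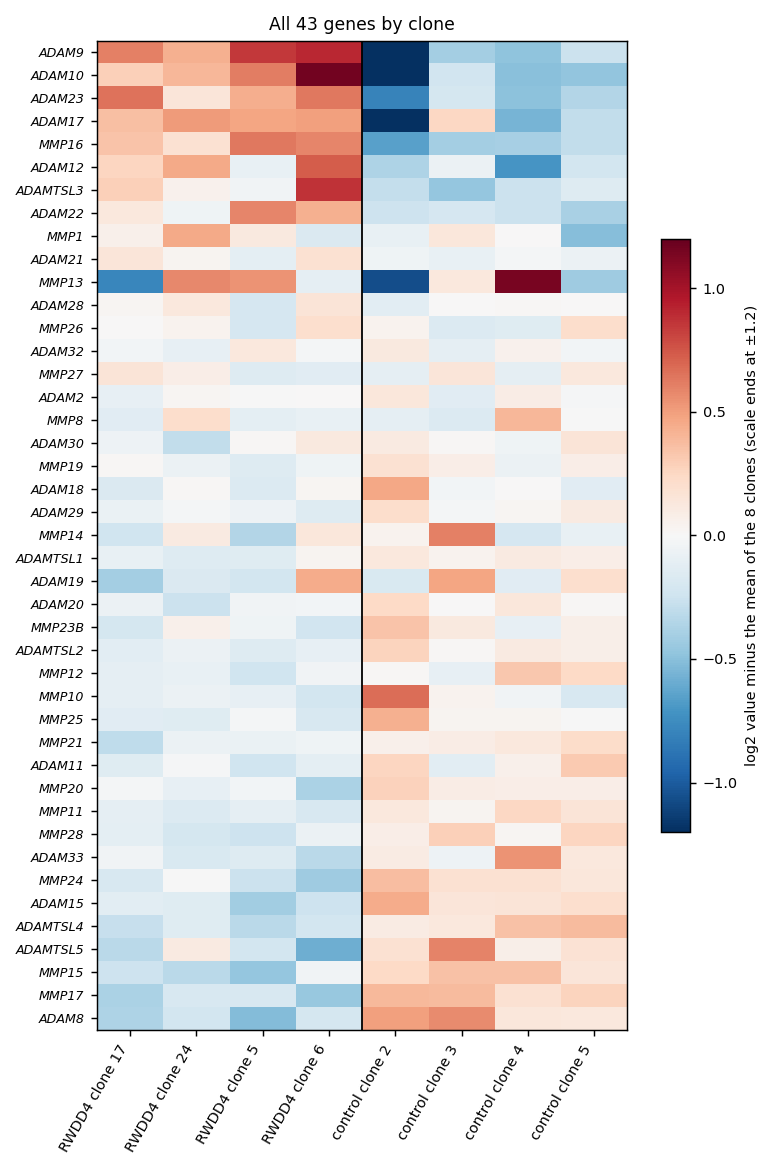
Log2 value of each of the 43 genes in each clone minus that gene's mean over the 8 clones, with genes ordered by their difference from top to bottom and RWDD4 clones left of control clones; red is above and blue below the mean, and the colour scale ends at 1.2 on each side. Control clone 2 is darkest blue for ADAM9, ADAM10 and ADAM17, and MMP13 is high in clones of both groups.

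The 8 genes that rose were all longer than the 11 that fell. Genomic span ran from 67.3 to 386 kb (median 223 kb) in the 8 genes that rose, from 8.0 to 50.3 kb (median 14 kb) in the 11 that fell, and from 2.48 to 1004 kb (median 18.6 kb) in the 24 that did not pass. The median span of the protein-coding genes measured was 26.7 kb. Among the 21 members above it 8 rose and 2 fell, against 43.9% and 12.5% of all protein-coding genes above it. Among the 22 members below it none rose and 9 fell, against 16.1% and 33.0% of all protein-coding genes below it. Across all genes, too, long ones rose more often and short ones fell more often.

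Long span did not always go with a rise: ADAMTSL1, the longest member at 1004 kb, lay at -0.18, MMP26 (288 kb) at 0.03 and ADAM32 (177 kb) at -0.02. All 3 had group means below the overall probe set median. ADAM19 (98.5 kb) did not, with means of 9.36 in RWDD4 clones and 9.54 in control clones, and lay at -0.18, not past the test. MMP24 (50.3 kb) and MMP28 (39.4 kb), both above the median span, fell. Removing each array's trend over span gave 7 rises and 15 falls in the family, and 3541 and 3405 over all 14884 genes. Of the 19 reported changes 13 were still past the test, and the other calls of that fit were of members not called as reported. ADAM9 then lay at 1.13 (SE 0.23), ADAM10 at 0.95 (SE 0.20), ADAM17 at 0.70 (SE 0.22), ADAM23 at 0.66 (SE 0.13) and MMP16 at 0.63 (SE 0.11), all past the test.

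**Figure D4:**
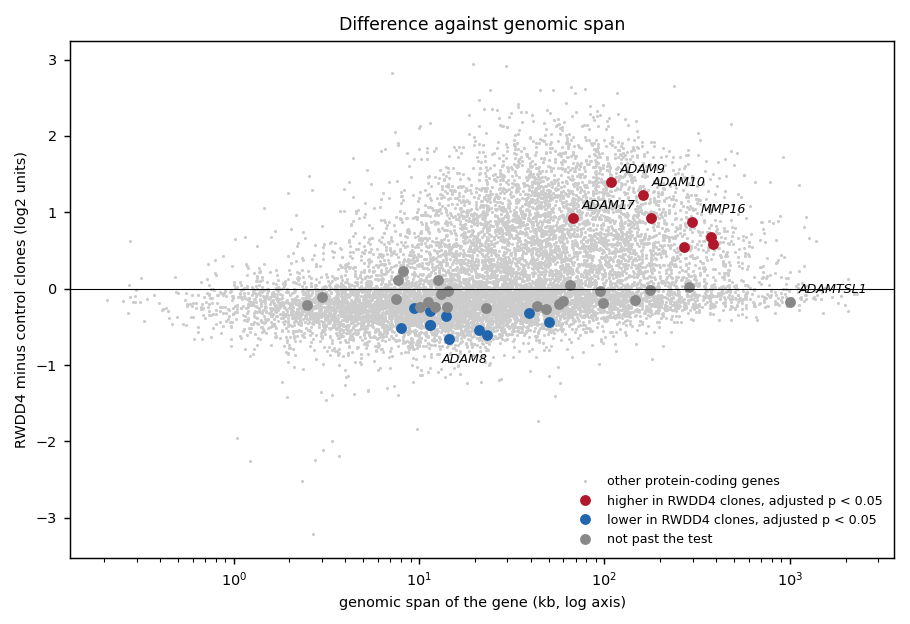
Fitted difference in log2 units against genomic span in kb on a log axis, for the protein-coding genes measured (light grey) and the 43 members (large points: red rose, blue fell, dark grey did not pass). The 8 members that rose lie at spans of 67.3 kb or more, and the 11 that fell at 50.3 kb or less.

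The letters before the start sites were read next. RefSeq promoter sequence (GRCh38.p14) was matched for 28 of the 43 genes, and the 250 bases before the annotated start were read. No sequence was matched for ADAM9, ADAM33, MMP16, MMP17 and MMP28, which changed. Nor was one matched for ADAM2, ADAM11, ADAM18, ADAM28, ADAM32, MMP1, MMP12, MMP13, MMP19 and MMP25, which did not pass. Motifs of these unmatched genes were not searched. In the stretches read, median GC content was 73.6% in the 6 matched genes that rose and 76.2% in the 8 that fell. It was 40.8% in the 14 that did not pass, against 58.0% in all 35116 promoters. That comparison set was every promoter in the sequence source, not only those of measured genes, with GC contents of 0.4% to 96.4%. The GC box, searched as GGGCGG on both strands, occurred in 6 of 6 genes that rose, 7 of 8 that fell and 3 of 14 that did not pass, and in 42.6% of all promoters. The AP-1 motif, searched as TGANTCA on both strands, occurred in MMP10 and MMP20 alone among the 28, and in 6.57% of all promoters. The TATA motif, searched as TATAAA on both strands, occurred in 1 gene that changed, MMP21, and in 5 of 14 that did not pass, against 10.7% of all promoters. A match of 1 motif cannot overlap a match of another, and a match describes letters only. Of the 24 members that did not pass, 16 had group means below the overall probe set median, against 1 of the 11 that fell. None of the 8 that rose lay so low. ADAM19, MMP14, MMP23B and ADAMTSL2, which did not pass and were not that low, had GC contents of 76.4%, 56.8%, 76.4% and 73.6%. The part of expression level in this contrast was not tested.

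The stretches before ADAM10 and ADAM17, which rose, and before ADAM15 and MMP15, which fell, are shown because both directions share GC-rich promoters with GC boxes. The stretch before MMP10, which did not pass, shows the AT-rich type, with an AP-1 motif that begins 67 bases and a TATA motif that begins 31 bases before the start. Capitals mark GC boxes in the first 4 and the AP-1 and TATA motifs in MMP10. The regions are chr15:58749708-58749957, minus strand for ADAM10, chr2:9555831-9556080, minus strand for ADAM17, chr1:155051066-155051315, plus strand for ADAM15, chr16:58025504-58025753, plus strand for MMP15 and chr11:102780629-102780878, minus strand for MMP10, each written 5′ to 3′ on the gene's strand.
ADAM10: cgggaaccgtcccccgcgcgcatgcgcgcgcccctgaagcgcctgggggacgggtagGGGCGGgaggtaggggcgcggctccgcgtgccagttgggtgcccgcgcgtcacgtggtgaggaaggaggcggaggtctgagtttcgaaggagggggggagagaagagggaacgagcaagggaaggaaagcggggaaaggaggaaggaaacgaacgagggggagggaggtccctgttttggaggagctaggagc
ADAM17: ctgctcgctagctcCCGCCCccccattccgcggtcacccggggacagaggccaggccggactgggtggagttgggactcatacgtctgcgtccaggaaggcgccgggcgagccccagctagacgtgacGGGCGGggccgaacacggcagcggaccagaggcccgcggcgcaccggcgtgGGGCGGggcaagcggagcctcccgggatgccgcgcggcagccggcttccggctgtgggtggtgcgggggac
ADAM15: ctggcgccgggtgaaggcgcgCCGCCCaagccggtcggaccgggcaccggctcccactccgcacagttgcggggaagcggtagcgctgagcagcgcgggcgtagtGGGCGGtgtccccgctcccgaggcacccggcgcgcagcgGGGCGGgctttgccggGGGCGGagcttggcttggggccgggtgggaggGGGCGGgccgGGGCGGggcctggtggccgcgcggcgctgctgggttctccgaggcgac
MMP15: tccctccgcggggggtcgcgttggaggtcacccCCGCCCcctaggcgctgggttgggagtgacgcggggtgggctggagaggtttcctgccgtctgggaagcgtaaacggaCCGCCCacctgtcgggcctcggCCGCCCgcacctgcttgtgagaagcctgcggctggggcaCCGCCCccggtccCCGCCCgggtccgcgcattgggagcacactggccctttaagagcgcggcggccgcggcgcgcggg
MMP10: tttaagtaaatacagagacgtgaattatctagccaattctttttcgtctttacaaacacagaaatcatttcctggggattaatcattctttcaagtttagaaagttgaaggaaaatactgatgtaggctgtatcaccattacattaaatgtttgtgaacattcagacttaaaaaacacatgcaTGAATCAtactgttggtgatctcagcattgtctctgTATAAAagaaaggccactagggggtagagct

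Inhibitors, activators, partners and substrates of the families were read from 13 lists, of which the integrin list had no measured gene. Over the lists together 24 of 115 measured genes rose and 35 fell (median difference -0.13), against 25.1% and 21.6% of all genes. Those shares are also the comparison for each list below. With quantile normalization 19 rose and 42 fell, and with the span trend removed 16 rose and 44 fell. Over all 14884 genes the first gave 3429 rises and 3694 falls and the second 3541 and 3405. Beside the within-group axis limma called 0, with 11 at an unadjusted p under 0.05, against 1 and 1910 of all 14884 genes. Median span was 105 kb in the 24 that rose and 25.7 kb in the 35 that fell.

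Of 9 inhibitors 1 rose, 1 fell and 7 did not pass. TIMP1, a secreted inhibitor of most MMPs, read 10.69, 11.18, 10.64 and 10.79 in RWDD4 clones, against 11.42, 11.64, 11.39 and 11.33 in control clones, without overlap. RECK, a membrane-anchored inhibitor that restrains MMP14 and ADAM10, read 5.83, 5.55, 5.94 and 5.57 in RWDD4 clones, against 4.93, 5.24, 5.35 and 5.16 in control clones. All RWDD4 clones were above the controls. RECK rose by 0.55 (SE 0.13; adjusted p = 0.0047), and lay at 0.30 (adjusted p = 0.060) with the span trend removed. TIMP2, TIMP3, which also inhibits ADAM17, and TIMP4 did not pass, at 0.05, -0.06 and 0.17.

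In the list of proprotein convertases, which remove the prodomains, 3 of 5 measured genes fell and none rose, in limma's fit, where 4 had an unadjusted p under 0.05. Among all genes 21.6% fell and 25.1% rose. FURIN read 7.98, 8.12, 7.73 and 8.54 in RWDD4 clones, against 8.72, 9.17, 8.78 and 8.63 in control clones. RWDD4 clone 6 lay just below control clone 5, the other clones being farther apart, and FURIN fell by 0.73 (SE 0.17), or 1.66-fold (adjusted p = 0.0061). PCSK4, known from germ cells, and PCSK7 also fell, with differences of -0.45 and -0.40 (adjusted p = 0.0033 and 0.0053). PCSK5 and PCSK6 did not pass.

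Among 10 proteins that escort ADAM10 or ADAM17 to the surface 1 rose, 5 fell and 4 did not pass (median -0.35). Shares over all genes were 25.1% up and 21.6% down. TSPAN5, a tetraspanin that carries ADAM10, read 7.22, 7.06, 7.36 and 7.19 in RWDD4 clones, against 5.87, 6.40, 6.17 and 6.63 in control clones. It rose by 0.94 (SE 0.15), or 1.92-fold (adjusted p = 6.6e-04). TSPAN15 and TSPAN17, other tetraspanins of ADAM10, fell, with differences of -0.71 (SE 0.16) and -0.49 (SE 0.09). The tetraspanins of ADAM10 thus moved in both directions.

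RHBDF1, which encodes iRhom1, a carrier of ADAM17, read 6.59, 6.62, 6.43 and 6.47 in RWDD4 clones, against 7.33, 7.26, 6.73 and 6.96 in control clones. It fell by 0.54 (SE 0.13; adjusted p = 0.0074). Its relative RHBDF2 lay at -0.42 (SE 0.16; adjusted p = 0.053) and did not pass. It did pass with low values filtered out (adjusted p = 0.045), after quantile normalization (-0.60; adjusted p = 0.0091), with the span trend removed (-0.50; adjusted p = 0.021) and without RWDD4 clone 6 or control clone 4 (adjusted p = 0.029 and 0.021). PACS2, a sorting protein of ADAM17, fell by 0.48 (SE 0.10).

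**Figure D5:**
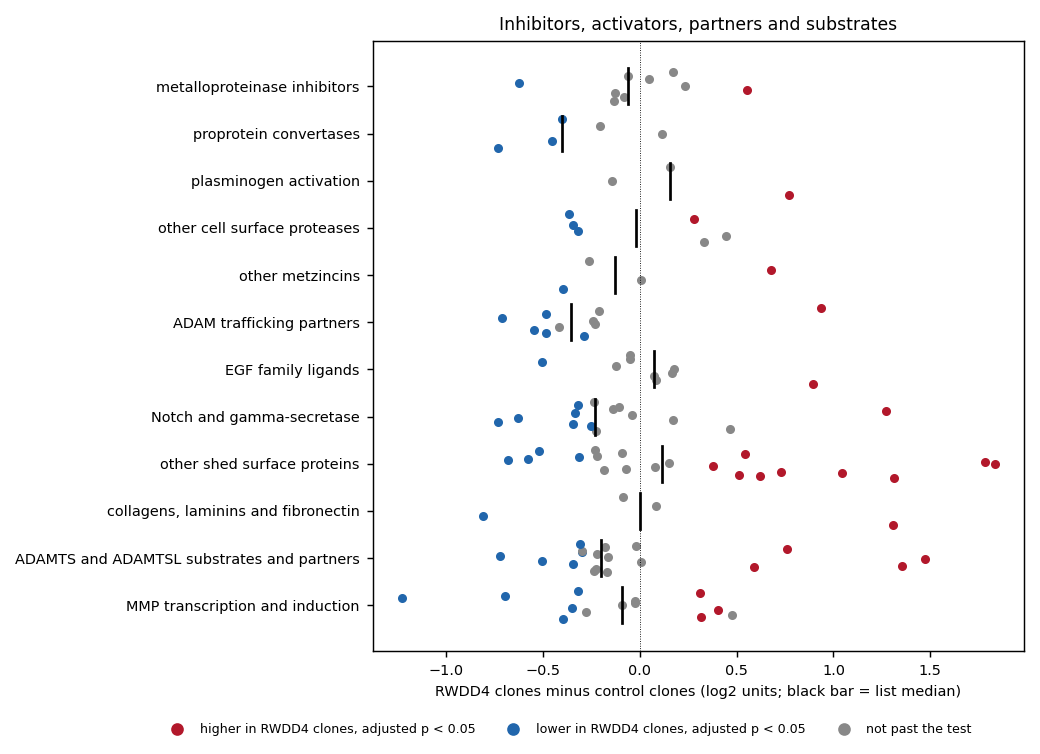
Fitted difference in log2 units, RWDD4 clones minus control clones, for the measured genes of each companion list; points are genes (red rose, blue fell, grey did not pass) and black bars are list medians. The convertases and ADAM escorts lie mostly below 0, and the shed surface proteins reach from -0.68 to 1.83.

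Substrates of the ADAMs changed in both directions. Of 9 EGF family ligands measured, which ADAM10 and ADAM17 release, BTC (betacellulin) rose and NRG2 (neuregulin 2) fell. The other 7 did not pass, whereas 46.7% of all genes changed. In 6 of the 9 both group means lay below the overall probe set median. BTC read 5.74, 5.47, 5.68 and 5.67 in RWDD4 clones, against 4.61, 4.75, 4.96 and 4.65 in control clones. It rose by 0.90 (SE 0.11), or 1.86-fold (adjusted p = 1.3e-04), and NRG2 fell by 0.50 (SE 0.13).

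In the list of Notch proteins and gamma-secretase, which cuts after ADAM10, 1 of 14 rose and 6 fell (median -0.23). All genes together had 25.1% up and 21.6% down. The receptor NOTCH2 read 8.91, 8.69, 9.08 and 9.57 in RWDD4 clones, against 7.21, 8.0, 7.79 and 8.16 in control clones. It rose by 1.27 (SE 0.22), or 2.42-fold (adjusted p = 0.0011). JAG2 and DLL3, ligands, and PSEN2, of gamma-secretase, fell, with differences of -0.63, -0.34 and -0.32. DLL3 lay at -0.20 (adjusted p = 0.098) with the span trend removed, and PSEN2 at -0.51 after quantile normalization. Of 20 other shed surface proteins 9 rose and 4 fell (median 0.12), the receptors MET and AXL, the ligand KITLG and the adhesion molecule ALCAM having the lowest adjusted p.

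Matrix genes were thinly covered. The list of collagens, laminins, fibronectin and basement membrane proteins had 4 measured genes, none of them a collagen or laminin. FN1 (fibronectin) rose, HSPG2 (perlecan) fell by 0.81 (SE 0.19), and the nidogen genes NID1 and NID2 did not pass, at 0.08 and -0.08. Of 18 substrates and partners of ADAMTS and ADAMTS-like proteins 4 rose and 5 fell (median -0.20). FBN2 (fibrillin 2) read 9.08, 8.97, 9.42 and 9.42 in RWDD4 clones, against 7.57, 8.15, 7.70 and 8.06 in control clones, and rose by 1.35 (SE 0.16), or 2.55-fold. LTBP1, which stores latent TGF-beta on microfibrils, also rose, while its relative LTBP3 fell by 0.72 (SE 0.11) and FBN3 fell by 0.34. After cyclic loess FBN3 lay at -0.25 (adjusted p = 0.051). Removing the span trend moved some differences by over 1.5 times without ending the call: FBN3 then lay at -0.59, ECE1 at -0.59, PACS2 at -0.74, NRG2 at -0.77 and TLL1 at 0.42.

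Other proteases and their regulators were mixed. Of 4 other metzincins TLL1 rose by 0.68 (SE 0.17) and BMP1, the procollagen C-proteinase, fell by 0.39 (SE 0.11). Without RWDD4 clone 5 BMP1 lay at -0.33 (adjusted p = 0.053). Of 6 other surface proteases MME (neprilysin) rose by 0.28 and ST14 (matriptase), HPN (hepsin) and ECE1 fell, with differences of -0.36, -0.34 and -0.32. MME lay at 0.004 with the span trend removed, and MME, HPN and ECE1 each missed the threshold in at least 6 of the 8 fits that leave out a clone. Of 3 plasminogen genes ANXA2, a plasminogen receptor subunit, rose by 0.77 (SE 0.15).

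Of 13 genes for transcription factors and inducers of MMPs 3 rose and 5 fell (median -0.09). The AP-1 subunits JUNB, JUND and FOS fell, JUNB by 1.23 (SE 0.20) and JUND by 0.70 (SE 0.12). RELA of NF-kappa-B also fell, by 0.32 (SE 0.08). With the span trend removed FOS lay at -0.15 (adjusted p = 0.20) and RELA at -0.18 (adjusted p = 0.086). The 3 genes that rose, named after their values were seen, were NFKB1, another NF-kappa-B subunit, by 0.31 (SE 0.11; adjusted p = 0.042), and the ETS family factors ETS1, by 0.32 (SE 0.10), and ETV5, by 0.41 (SE 0.13). These 3 rises did not pass after quantile normalization, with NFKB1 at 0.13, ETS1 at 0.12 and ETV5 at 0.20 (adjusted p = 0.33, 0.37 and 0.19), or with the span trend removed, with NFKB1 at 0.038, ETS1 at 0.043 and ETV5 at 0.19 (adjusted p = 0.77, 0.75 and 0.19). Of the 8 fits that leave out a clone, NFKB1 passed in 2, ETS1 in 4 and ETV5 in 6. JUN did not pass, at -0.02. FOSL1 and FOSL2, further AP-1 subunits named after their values were seen, also did not pass, at -0.09 and -0.02. BSG, a surface inducer of MMPs, fell by 0.40 (adjusted p = 0.043) and passed in 2 of the 8 fits that leave out a clone (adjusted p up to 0.10). With the span trend removed BSG lay at -0.28 (adjusted p = 0.12).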

How the data were processed

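Log2 expression values of 53617 probe sets on 8 arrays, 1 per clone, were deposited by the authors; Partek and RMA are named in the submitters' processing notes, with settings, versions and genome build not given in the sources used here. RMA compresses small differences near background, and such log2 values compare a gene between clones, not genes with each other. The annotation gave 16098 probe sets 1 symbol each, for 14884 genes; the probe set with the highest mean stood for a gene, without a filter on dim probe sets. Gene type, span and neighbours came from the RefSeq table of GRCh38.p14.

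RWDD4 and control clones were compared over all genes with lmFit and eBayes (limma 3.58.1, R 4.3.3), two-sided, without covariates, with Benjamini-Hochberg adjustment; the steps were tested on simulated data. Members and lists were chosen with earlier results of these data known. Every member is accounted for, with values by clone for members past the test and for MMP1, MMP10, MMP13 and MMP14; 9 regulators (TIMP1 to TIMP4, RECK, BSG, FURIN, RHBDF1 and RHBDF2) are named whether or not they passed, and up to 4 genes of a companion list, those of lowest adjusted p among the called, are named. Errors are SE of the difference or SD over 4 clones. The number of arrays limits the precision. Alternatives covered the variance model, probe set choice, low-value filter, 3 scalings, array weights, span trend, within-group axis and each clone left out.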

Additional observations from a re-analysis of the deposited data

Results flagged for a closer look

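Among 132 groups of 4 clones (66 named genes in either group), 7 held a clone whose gap to the nearest other clone took up more of the group's range than Dixon's 95% value allows; chance flags about 1 in 20 groups. ADAM9 lay at 7.16 in control clone 2, where the other controls ranged over 8.32 to 8.54. LTBP1 lay at 8.42 in the same clone, against 9.35 to 9.54 in the rest of the controls. MMP21 lay at 3.47 in RWDD4 clone 17, against 3.70 to 3.73 in the other RWDD4 clones. ST14 lay at 5.46 in RWDD4 clone 17, against 5.35 to 5.37. BMP1 lay at 7.03 in RWDD4 clone 5, against 7.27 to 7.29. TIMP4 lay at 5.51 in RWDD4 clone 24, against 5.21 to 5.23. RWDD4 itself lay at 9.87 in RWDD4 clone 6, against 10.42 to 10.46 in the other RWDD4 clones.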

How the results depend on the processing

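No paired analysis was possible because the groups share 1 clone number, 5, which names different isolates. Of the 19 members that changed, 14 passed with each clone left out, 14 under all 3 scalings and 11 under every alternative apart from the axis covariate (6 that rose: ADAM9, ADAM10, ADAM12, ADAM17, ADAM23 and MMP16; 5 that fell: ADAM8, ADAM15, MMP15, MMP17 and ADAMTSL4). Falls in the family numbered 7 after cyclic loess. Beside the within-group axis 0 rose and 0 fell in the family and in the companion lists, and the family median difference was -0.065. Over all 14884 genes 0 rose and 1 fell in that fit. That median, -0.18 as reported, was -0.21 with low values filtered out, -0.12 after quantile normalization, -0.13 after median centring, -0.079 after cyclic loess and -0.15 with array weights. Leaving out 1 clone gave a family median of -0.19 to -0.14, 7 to 8 rises and 8 to 12 falls in the family, and 17 to 24 rises and 26 to 34 falls in the lists.

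Signs turned under the axis covariate for ADAM9 (-0.23), ADAM10 (-0.030), ADAM17 (-0.35), MMP10 (0.63), MMP13 (-1.07), HPN (0.033), FN1 (-0.25), TIMP2 (-0.18), TIMP3 (0.29), TIMP4 (-0.023), ETV5 (-0.045) and NFKB1 (-0.18), none past the test. That covariate runs together with the group, so the fit cannot separate them. MMP13, not past the test in any fit, also turned with array weights (-0.16) and ranged from -0.22 to 0.51 with a clone left out. TIMP2 turned after quantile normalization (-0.063), with the span trend removed (-0.18) and without control clone 2, ranging from -0.0063 to 0.093 with a clone left out. TIMP3 turned after cyclic loess (0.056) and without RWDD4 clone 17, ranging from -0.15 to 0.010. The causes were not tested. Signal over background was not analysed here, so small differences of dim genes such as the testis ADAMs could not be bounded.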
